A study of Mus musculus with 8 samples.

Results

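Ltf, Lcn2, Hp, Slpi, Wfdc2, Reg3g and Pigr encode secreted or transported proteins of mucosal defense and the acute phase response. They were taken by symbol from the count table of a bulk RNA-seq experiment on sorted mouse lung cells, 7 of the 27179 genes counted. All 7 passed the filter on low counts and were among the 15583 genes tested. The experiment compared 2 cell populations from lungs of Eml4-Alk mice that differed in their signal from QZ1, a probe that lights up when a protease cleaves its peptide linker. The mice were females of strain C57BL/6 by the labels (C57BL/6J in the study's methods), aged 18 to 22 weeks. An adenovirus given into the trachea, carrying Cas9 and guide RNAs, had rearranged Eml4 and Alk 11 to 12 weeks earlier. Every animal had received 4.5 nmol of PEGylated QZ1 intravenously, and lungs were taken after 2 h. Live cells without CD45 and CD11b were split by QZ1 signal, gated against EpCAM, into QZ1-hi and QZ1-lo populations (QZ1+ and QZ1- in the sample descriptions), with at least 100000 cells collected per population. There were 4 libraries of each population and none from untreated or tumor-free lungs, so all values below compare populations within the tumor model.

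The airway surface is defended by proteins that its epithelium releases into the mucus. Lactoferrin (Ltf) binds iron, lipocalin 2 (Lcn2) binds the iron carriers of bacteria, and haptoglobin (Hp) binds free hemoglobin, so all withhold iron from microbes. Slpi is an inhibitor of neutrophil serine proteases, and Wfdc2 carries the same type of small disulfide-rich domain. Reg3g is a lectin that kills Gram-positive bacteria, and Pigr carries polymeric immunoglobulins across the epithelium. Club and goblet cells of the airway are known sources of several of these proteins. Lcn2 and Hp also belong to the acute phase response, in which interleukin 6, interleukin 1 and interleukin 17 signals act through STAT3, NF-kB and C/EBP factors.

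The 7 genes did not move as a group. Ltf, Hp, Wfdc2, Reg3g and Pigr were lower in QZ1-hi cells, Lcn2 was higher, and Slpi did not pass the test. Levels are given as CPM (counts relative to library size, rescaled by the TMM method), and changes as the log2 fold change of QZ1-hi over QZ1-lo. The test was the quasi-likelihood F-test of edgeR, adjusted over all genes tested (Benjamini-Hochberg) with a threshold of 0.05. By this rule 5 of the 7 were lower, against 8.21% of all genes tested, and 1 was higher, against 9.88%. The genes and lists were chosen with earlier results of these data known, so such shares are given as description. The median log2 fold change of the 7 was -1.34, and that of all genes tested was 0.02. In 4 of the 7 every QZ1-hi library lay below every QZ1-lo library, which held for 10.7% of all genes tested, and in Lcn2 every QZ1-hi library lay above, which held for 11.9%. Total counts ranged from 18380918 to 26847938 per library. Neither the labels nor the paper tie libraries to single mice, so the populations were compared without pairing, and p-values measure the spread between these libraries.

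Scaling mattered for the upward calls. With TMM, 1540 of the genes tested were higher and 1280 lower. With scaling by library size only, the counts were 882 and 2509, and the median of all genes fell to -0.44. Mitochondrial ribosomal RNA held 50.1% ± 8.76 of the counts of QZ1-hi libraries against 37.3% ± 7.50 in QZ1-lo (SD over 4 libraries each, p = 0.0857 by a two-sided exact permutation test), with overlapping libraries. All changes below are relative to the TMM scale unless stated.

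**Figure D1:**
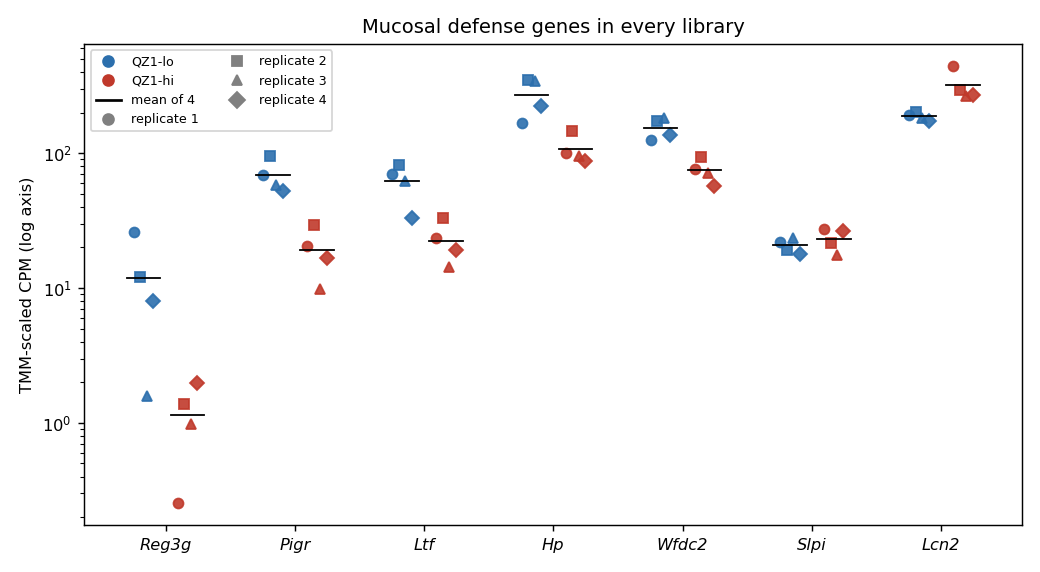
TMM-scaled CPM (log axis) of the 7 genes in each of 4 QZ1-lo and 4 QZ1-hi libraries, with 1 point per library, marker shape for the replicate number and a line at the mean of 4. Pigr, Ltf, Hp and Wfdc2 separate downward in QZ1-hi, Reg3g spreads widely with 1 QZ1-lo library among the QZ1-hi values, Slpi overlaps and Lcn2 separates upward.

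Among the iron and hemoglobin binding proteins, Ltf and Hp fell while Lcn2 rose. Ltf (Entrez Gene 17002, GRCm38 chr9:111019271-111042767, plus strand) measured 23.4, 33.0, 14.3 and 19.1 CPM in QZ1-hi replicates 1 to 4, and 69.9, 82.3, 61.9 and 33.1 CPM in QZ1-lo replicates 1 to 4. The populations did not overlap, but only narrowly, since QZ1-hi replicate 2 and QZ1-lo replicate 4 were at nearly the same level. The mean was 22.5 ± 7.96 CPM in QZ1-hi and 61.8 ± 20.9 CPM in QZ1-lo (SD, n = 4 each), so that the log2 fold change was -1.46 (SE 0.30, adjusted p = 0.00553 by edgeR). In bulk RNA such a fall can come from fewer cells of a type or from less RNA per cell, and these cannot be told apart.

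Hp (Entrez Gene 15439, chr8:109575128-109579172, minus strand) measured 99.6, 145, 95.4 and 88.1 CPM in the QZ1-hi libraries and 168, 348, 346 and 224 CPM in the QZ1-lo libraries. Every QZ1-lo library exceeded every QZ1-hi library, and QZ1-lo replicates 2 and 3 stood well above replicate 1. Means were 107 ± 25.9 and 271 ± 90.1 CPM (SD, n = 4 each), so that the log2 fold change was -1.34 (SE 0.24, adjusted p = 0.00307 by edgeR).

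Lcn2 (Entrez Gene 16819, chr2:32384633-32388252, minus strand) went the other way, with 444, 294, 268 and 271 CPM in the QZ1-hi libraries and 192, 203, 183 and 174 CPM in the QZ1-lo libraries. The populations did not overlap, and QZ1-hi replicate 1 was far above the other 3. Means were 319 ± 84.2 CPM in QZ1-hi and 188 ± 12.4 CPM in QZ1-lo (SD, n = 4 each), so that the log2 fold change was 0.76 (SE 0.17, adjusted p = 0.00832 by edgeR). Without QZ1-hi replicate 1 the log2 fold change was 0.56 (adjusted p = 0.00829 by edgeR). With scaling by library size only it was 0.35 (adjusted p = 0.371 by edgeR), against a median of -0.44 for all genes under that scaling.

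Of the proteins with WAP domains, Wfdc2 fell and Slpi did not pass the test. Wfdc2 (Entrez Gene 67701, chr2:164562413-164568510, plus strand) measured 76.5, 94.0, 71.5 and 57.3 CPM in the QZ1-hi libraries and 125, 174, 182 and 137 CPM in the QZ1-lo libraries. The groups were clearly apart, with the spread within each smaller than the distance between them. Means were 74.8 ± 15.2 and 155 ± 27.7 CPM (SD, n = 4 each), and the log2 fold change was -1.05 (SE 0.17, adjusted p = 0.00181 by edgeR).

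Slpi (Entrez Gene 20568, chr2:164354070-164389095, minus strand) lies on the same chromosome and measured 27.2, 21.4, 17.6 and 26.5 CPM in the QZ1-hi libraries and 22.1, 19.2, 23.6 and 17.9 CPM in the QZ1-lo libraries. The populations overlapped across most of their range. The log2 fold change was 0.16 (SE 0.17, adjusted p = 0.597 by edgeR), and it was -0.31 with scaling by library size only, so no direction can be given.

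The lectin Reg3g and the transporter Pigr had the largest log2 fold changes of the 7. Reg3g (Entrez Gene 19695, chr6:78466269-78468872, minus strand) was at 0.254, 1.38, 0.983 and 1.97 CPM in the QZ1-hi libraries, from 6, 28, 17 and 33 reads counted, and at 26.1, 12.0, 1.59 and 7.98 CPM in the QZ1-lo libraries, from 877, 295, 44 and 195. In fold terms the QZ1-lo libraries differed among themselves more than for any other of the 7 genes, and QZ1-lo replicate 3 fell below QZ1-hi replicate 4. The log2 fold change was -3.40 (SE 0.77, adjusted p = 0.00984 by edgeR), and limma's test did not call it (-3.65, adjusted p = 0.115).

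Pigr (Entrez Gene 18703, chr1:130826684-130852249, plus strand) measured 20.4, 29.5, 9.83 and 16.6 CPM in the QZ1-hi libraries and 69.4, 95.4, 57.7 and 52.5 CPM in the QZ1-lo libraries. No library of one population reached the range of the other, and the highest QZ1-hi library, replicate 2, was well below the lowest of QZ1-lo. Means were 19.1 ± 8.22 and 68.8 ± 19.1 CPM (SD, n = 4 each), so that the log2 fold change was -1.85 (SE 0.30, adjusted p = 0.00157 by edgeR).

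Per kilobase of exon in RefSeq-matched transcripts, the 7 genes had nearly the same order in both populations, where the means of Hp and Wfdc2 alone changed places and the libraries of these 2 genes overlapped in each. In QZ1-lo, Lcn2 (205 ± 13.5 CPM per kb, SD, n = 4), Hp (202 ± 67.0) and Wfdc2 (182 ± 32.6) led, and their ranges overlapped. A lower tier of Slpi (23.6 ± 2.96), Ltf (22.5 ± 7.62), Pigr (17.9 ± 4.97) and Reg3g (15.5 ± 13.5) also overlapped from neighbour to neighbour. In QZ1-hi, Lcn2 stood alone at 349 ± 92.1 CPM per kb, with a lowest library of 292, above Wfdc2 (88.1 ± 17.9) and Hp (79.6 ± 19.3), which overlapped. Slpi followed at 26.4 ± 5.16 CPM per kb, clear of Ltf (8.19 ± 2.90) and Pigr (4.96 ± 2.14), which overlapped each other, and the highest Reg3g library and the lowest Pigr library were at practically the same level (2.55 CPM per kb each).

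The loss of Ltf, Hp and Wfdc2 was about as large as that of Epcam, the epithelial adhesion protein that was also used in the gate. Epcam fell from 132 ± 17.4 CPM in QZ1-lo to 58.7 ± 16.3 CPM in QZ1-hi (SD, n = 4 each, log2 fold change -1.17, SE 0.19, adjusted p = 0.00158 by edgeR). All 6 pan-epithelial markers tested were lower, against 8.21% of all genes tested. The log2 ratio of a gene to Epcam within a library does not depend on the scaling between libraries and is given as a description. For Hp it averaged 0.88 in QZ1-hi and 0.98 in QZ1-lo, for Wfdc2 0.37 and 0.22, and for Ltf -1.41 and -1.17, with overlapping libraries in each case. For these 3 genes the means of the populations differed by less than the SD within either population.

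The libraries separated for Lcn2 and Slpi, as they did for most genes. Every QZ1-hi library lay above every QZ1-lo library in this ratio for 65.2% of all genes tested, and the median difference was 1.22 on the log2 scale over the 14764 genes with counts in every library, since Epcam itself fell. The log2 ratio of Lcn2 to Epcam lay between 2.13 and 2.59 in the QZ1-hi libraries and between 0.26 and 0.73 in the QZ1-lo libraries. That of Slpi lay between -1.65 and -0.77 in QZ1-hi and between -2.70 and -2.67 in QZ1-lo, where the 4 libraries were almost the same. The difference was 1.36 for Slpi, near that median, and 1.94 for Lcn2, above it. With the summed pan-epithelial markers, which fell as well, in place of Epcam the differences were 1.54 and 2.12. Pigr and Reg3g went down relative to Epcam on average, by -0.71 and -1.92, but their libraries overlapped. Against the club cell gene Scgb1a1, which fell more than Epcam, 76.5% of all genes tested separated upward, with a median difference of 2.45. The differences of Hp (1.12), Wfdc2 (1.37), Ltf (0.98), Pigr (0.51) and Reg3g (-0.70) were all below that median, those of Slpi (2.58) and Lcn2 (3.16) above it, and the libraries separated for Hp, Wfdc2, Slpi and Lcn2. Against a second club gene, Cyp2f2, only Slpi and Lcn2 of the 7 separated, as did 48.3% of all genes tested.

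**Figure D2:**
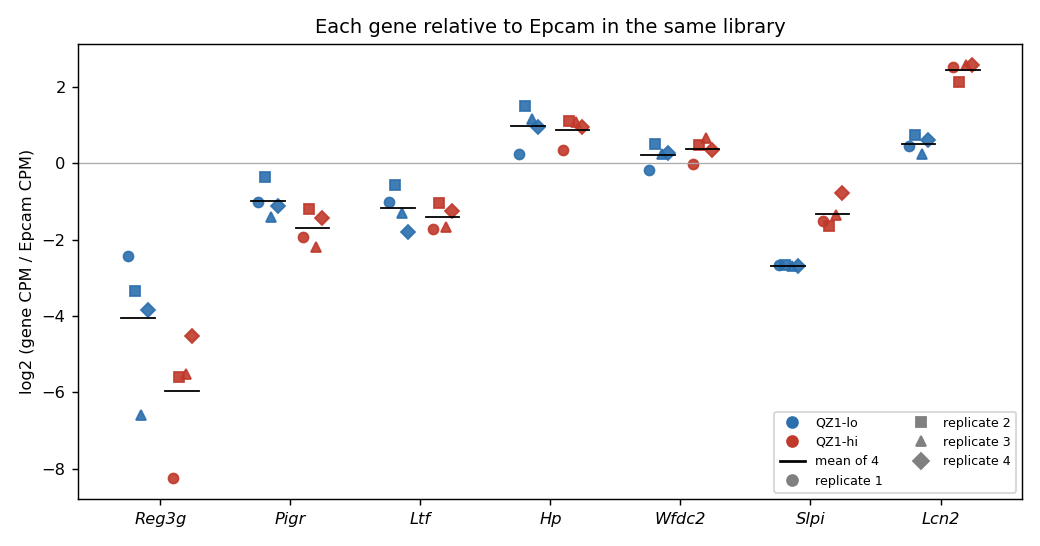
Log2 ratio of each gene's CPM to the CPM of Epcam in the same library, with 1 point per library (4 QZ1-lo and 4 QZ1-hi), marker shape for the replicate number and a line at the mean of 4. Hp, Wfdc2 and Ltf overlap between populations, while the Lcn2 and Slpi points of QZ1-hi all lie above those of QZ1-lo, as for 65.2% of all genes tested.

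Club cells, the secretory cells of the small airways, were the airway type whose markers were most abundant, and all 6 of their markers were lower, against 8.21% of all genes tested. The median log2 fold change of the list was -1.89, beyond the value of every one of the 7 genes except Reg3g. Scgb1a1, the main club cell secretoglobin, measured 268, 796, 296 and 301 CPM in the QZ1-hi libraries and 1196, 3477, 2315 and 1652 CPM in the QZ1-lo libraries. QZ1-hi replicate 2 and QZ1-lo replicate 2 were the highest of their populations, as they also were for Ltf and Pigr, and for Hp by a small margin in QZ1-lo. Wfdc2 shared this in QZ1-hi but was highest in QZ1-lo replicate 3, and Reg3g was highest in QZ1-hi replicate 4 and QZ1-lo replicate 1. The summed club markers were 603 ± 351 CPM in QZ1-hi and 2851 ± 1231 CPM in QZ1-lo (SD, n = 4 each). The two-sided exact permutation p was 0.0286, which is the lower limit for 4 against 4 libraries. Scgb1a1 made up 74.6% of the summed list, and no marker was at 0. The part of the club cell signal in the change of the 5 lower genes was not tested.

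Among the other airway defense genes, more were lower than higher. Of 32 such genes, 23 were tested, 6 were lower and 2 higher, with a median log2 fold change of -0.35, and scaling by library size only gave 12 lower and 1 higher. The share of all genes tested was 8.21% for lower and 9.88% for higher calls, so the 2 higher genes were near the background. The gel-forming mucins Muc5ac (-2.39, SE 0.40) and Muc5b (-1.25, SE 0.23) were among the lower, together with Bpifb1 (-2.51, SE 0.51), a secreted protein of the airway surface, and Dmbt1 (-1.30, SE 0.34), a scavenger receptor cysteine-rich protein of mucus that binds bacteria. Adjusted p-values by edgeR were 0.00193 for Muc5ac, 0.00309 for Muc5b, 0.00597 for Bpifb1 and 0.0201 for Dmbt1, which missed the threshold without QZ1-lo replicate 1, QZ1-lo replicate 2 or QZ1-hi replicate 4 (up to 0.0546). Muc4, a membrane mucin, and Cxcl17, a mucosal chemokine, were also lower (-1.13 and -1.22).

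The higher airway defense genes were Cxcl15 and Muc16. Cxcl15, a chemokine of lung epithelium, measured 1076, 775, 650 and 586 CPM in QZ1-hi and 373, 437, 425 and 342 CPM in QZ1-lo (log2 fold change 0.97, SE 0.19, adjusted p = 0.00416 by edgeR). Like Lcn2, Cxcl15 was highest in QZ1-hi replicate 1 and showed no overlap, and with scaling by library size only it also missed the threshold (0.57, adjusted p = 0.160 by edgeR). Muc16, a membrane mucin also known from mesothelium, was at 1.65, 5.48, 1.33 and 3.04 CPM in QZ1-hi and at 0.328, 0.122, 0.905 and 0 CPM in QZ1-lo (log2 fold change 3.05, SE 0.93, adjusted p = 0.0419 by edgeR), and its call was lost without QZ1-hi replicate 1, 2 or 4 or QZ1-lo replicate 1 or 2, where the adjusted p reached 0.146. Lyz2, a lysozyme known from alveolar type 2 cells and macrophages, was the most abundant gene of the list (0.51, SE 0.28, adjusted p = 0.275 by edgeR).

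The acute phase genes that were called all rose, as Lcn2 did, while Hp fell. Of 29 genes listed beside the 7, 19 were tested and 6 were higher, against 9.88% of all genes tested, with a median log2 fold change of 0.52. None was lower by edgeR, DESeq2 or limma, against 8.21% of all genes by edgeR, and 1 was lower at an unadjusted p under 0.05 (Cp, which encodes ceruloplasmin). Without QZ1-hi replicate 4 edgeR called 1 of them lower, Cd14, a co-receptor for bacterial lipopolysaccharide. Scaling by library size only gave 4 higher and 2 lower. C3, the central complement component, was the most abundant and rose from 422 ± 75.4 CPM in QZ1-lo to 1574 ± 429 CPM in QZ1-hi (SD, n = 4 each, log2 fold change 1.90, SE 0.20, adjusted p = 0.000278 by edgeR). Serpina3n, an inhibitor of serine proteases, had the largest log2 fold change of the list (3.59, SE 0.50), and Lrg1, a secreted leucine-rich glycoprotein, rose by 1.30 (SE 0.19). Saa3, a serum amyloid made outside the liver, measured 20.5, 2.91, 3.87 and 3.16 CPM in QZ1-hi and between 0.529 and 1.64 CPM in QZ1-lo. Its log2 fold change of 2.89 (SE 0.68, adjusted p = 0.0123 by edgeR) leaned on QZ1-hi replicate 1, without which it was 1.68 (adjusted p = 0.0449 by edgeR).

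**Figure D3:**
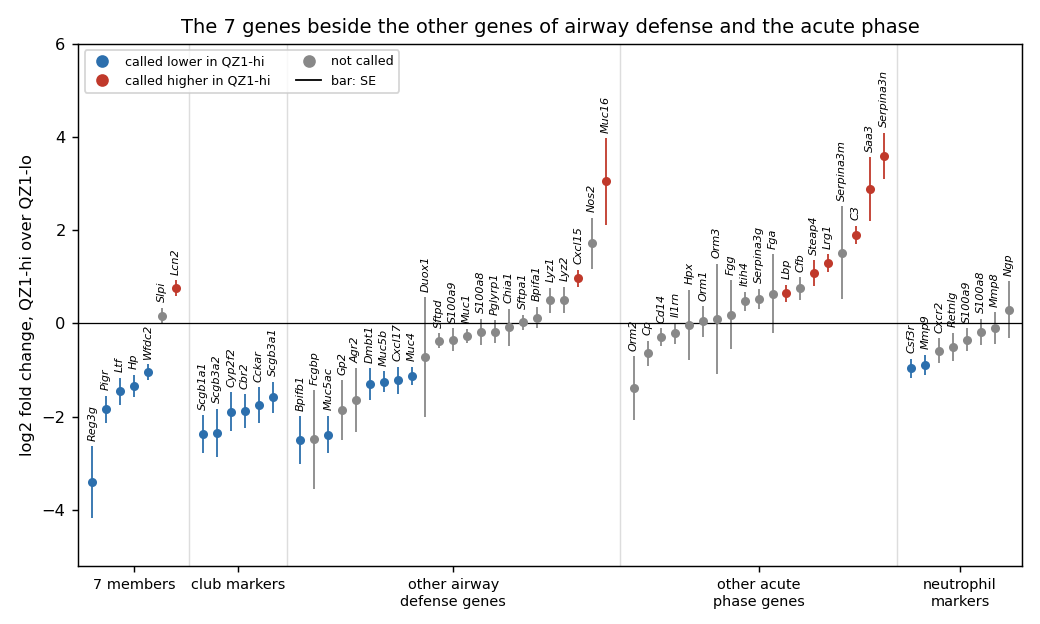
Log2 fold change of QZ1-hi over QZ1-lo with its SE for the 7 genes, the 6 club markers and the tested genes of the other airway defense, other acute phase and neutrophil lists, colored by the edgeR call. Of the 7 genes 5 sit below 0 with all 6 club markers, and the acute phase genes that were called all lie above 0, on the side of Lcn2.

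Family relatives of the 7 genes were largely silent. Of 25 relatives, 5 were tested, 2 of these were higher, against 9.88% of all genes tested, and 11 of the 25 had no count in any library, among them Reg3b. Trf, the transferrin gene and a relative of Ltf, was higher (842 to 1765 CPM in QZ1-hi, 413 to 590 CPM in QZ1-lo; log2 fold change 1.12, SE 0.24, adjusted p = 0.00718 by edgeR), the opposite direction from Ltf itself. Wfdc1, another WAP domain gene, was also higher (0.92, SE 0.25, adjusted p = 0.0262 by edgeR) and lost its call without QZ1-lo replicate 1, QZ1-hi replicate 2, QZ1-hi replicate 3 or QZ1-lo replicate 4. With scaling by library size only neither relative was called.

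Of 21 receptors, ligands and iron-handling partners, 14 were tested and 2 were higher, both large endocytic receptors, a share near the 9.88% of all genes tested. Lrp1, which takes up lactoferrin among many ligands, rose by 1.37 (SE 0.21, adjusted p = 0.00110 by edgeR), and Lrp2, which takes up Lcn2 in the kidney, by 0.49 (SE 0.14, adjusted p = 0.0286 by edgeR). Lrp2 missed the threshold in 6 of 8 fits with a single library removed, all but those without QZ1-hi replicate 3 or replicate 4. None was lower by edgeR, DESeq2 or limma, also at an unadjusted p under 0.05 (0 genes). Of the neutrophil proteases that Slpi inhibits, Ctsg had no count in any library and Elane had 1 read in all 8 libraries together.

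Genes that act upstream were called in both directions, the lower ones at a share near that of all genes tested. Of 35 cytokines, receptors and factors known to act on the 7 genes, 32 were tested, 6 were higher, against 9.88% of all genes tested, and 2 lower, against 8.21%. The median log2 fold change of the list was -0.06, close to that of all genes. Lifr, a receptor of the interleukin 6 family, rose by 1.92 (SE 0.26), Il1r1, the interleukin 1 receptor, by 1.09 (SE 0.24), and Socs3, a feedback inhibitor of STAT3 signaling, by 0.91 (SE 0.19). Cebpd, a C/EBP factor of the acute phase, rose by 1.23 (SE 0.27, adjusted p = 0.00892 by edgeR) and by 0.78 without QZ1-hi replicate 3, the library with its highest level. The cytokine genes Tnf (-1.42, SE 0.30, adjusted p = 0.00655) and Lif (-0.91, SE 0.26, adjusted p = 0.0339) fell by edgeR, and Lif kept its call only without QZ1-hi replicate 1 or QZ1-lo replicate 4. Cebpb, the most abundant of the list, and Stat3 were not called, with log2 fold changes of -0.03 each. Scaling by library size only left 1 gene of the list higher and 5 lower.

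The promoters were searched for short motifs of these factors, in windows from 250 bases before to 50 bases after the start site. Windows were available for 6 of the 7 genes (RefSeq, GRCm38.p6). Hp had no window and was not searched. A C/EBP motif, TTGCNNAA on either strand, occurred in Ltf, Lcn2 and Slpi, and in 10.8% of all 32851 windows of that length. The stretches below are shown because they hold these matches, in capitals, in 3 genes that moved differently. They are read on each gene's strand, at chr9:111019206-111019235 (plus), chr2:32387937-32387966 (minus) and chr2:164356728-164356757 (minus).
Ltf: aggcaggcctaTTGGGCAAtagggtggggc
Lcn2: agcccttcctgTTGCTCAAccttgcacagt
Slpi: gaatttgtaTTGAGCAAtaggttagagttt
The Ltf match starts 75 bases before the start site, the Lcn2 match 216 and the Slpi match 241. These are the start sites of the RefSeq windows. The Lcn2 and Slpi stretches lie inside the GENCODE gene spans given above, which begin further upstream. Of the genes that hold it Ltf fell, Lcn2 rose and Slpi was not called. The NF-kB letters GGANNNTCC were in none of the 6 windows and in 8.62% of all windows, the STAT letters TTCNNNGAA in that of Pigr and in 8.30% of all, and the FOXA letters TGTTTNC in those of Ltf and Pigr and in 20.5% of all.

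Other cell types were read from their markers, since the sorted populations were mixtures. Neutrophils store Ltf, Lcn2, Hp and Slpi, and 2 of their 8 tested markers were lower (Csf3r -0.96 and Mmp9 -0.89, adjusted p = 0.00793 and 0.0154 by edgeR), against 8.21% of all genes tested, and 6 were lower with scaling by library size only. None was higher by edgeR, DESeq2 or limma, also at an unadjusted p under 0.05 (0 genes), and 4 were lower without QZ1-hi replicate 4. Their summed level was 242 ± 96.9 CPM in QZ1-hi and 339 ± 40.5 CPM in QZ1-lo (SD, n = 4 each, two-sided exact permutation p = 0.143, and 0.0286 with scaling by library size only), led by S100a9 with 42.4% of the sum, while the granule protease gene Ctsg was at 0. The part of neutrophils in the changes of Ltf, Lcn2 and Hp was not tested. Pan-leukocyte markers, which the CD45 gate should deplete, summed to 575 ± 216 CPM in QZ1-hi and 508 ± 107 CPM in QZ1-lo (SD, n = 4 each, two-sided exact permutation p = 0.657), with Ptprc, which encodes CD45, at 71.4 to 222 CPM in every library.

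Alveolar type 2 cells, the surfactant producers of the alveolus, had 3 of 8 markers higher and 1 lower, against 9.88% and 8.21% of all genes tested. One of the higher markers was Cxcl15, counted above among the airway defense genes. Of 7 alveolar type 1 markers 4 were lower and 1 higher. Sftpc, a surfactant protein gene, rose by 0.78 (SE 0.21, adjusted p = 0.0231 by edgeR), and Slc34a2, a phosphate transporter, by 0.88 (SE 0.22, adjusted p = 0.0165 by edgeR), and neither was called with scaling by library size only or without QZ1-lo replicate 2. Sftpc also lost its call without QZ1-lo replicate 1 or replicate 4. Nkx2-1, the lineage factor of lung epithelium, was lower (-0.90, SE 0.19, adjusted p = 0.00625 by edgeR). The summed type 2 markers were 6107 to 11376 CPM in QZ1-hi and 4228 to 6708 CPM in QZ1-lo, highest in QZ1-hi replicate 1 as Lcn2 was. The two-sided exact permutation p was 0.0571, and 0.714 with scaling by library size only, where the libraries overlapped. Endothelial (7 of 7) and fibroblast (6 of 6) markers were all higher, with summed levels of 906 to 2145 and 1017 to 2068 CPM in QZ1-hi and 69.7 to 276 and 30.8 to 236 CPM in QZ1-lo. All 5 mesothelial markers were higher, but none was called without QZ1-hi replicate 2, the library in which they summed to 290.2 CPM against 41.9 CPM in the lowest of QZ1-hi. The part of these cell types in the rise of Lcn2 and the acute phase genes was not tested.

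**Figure D4:**
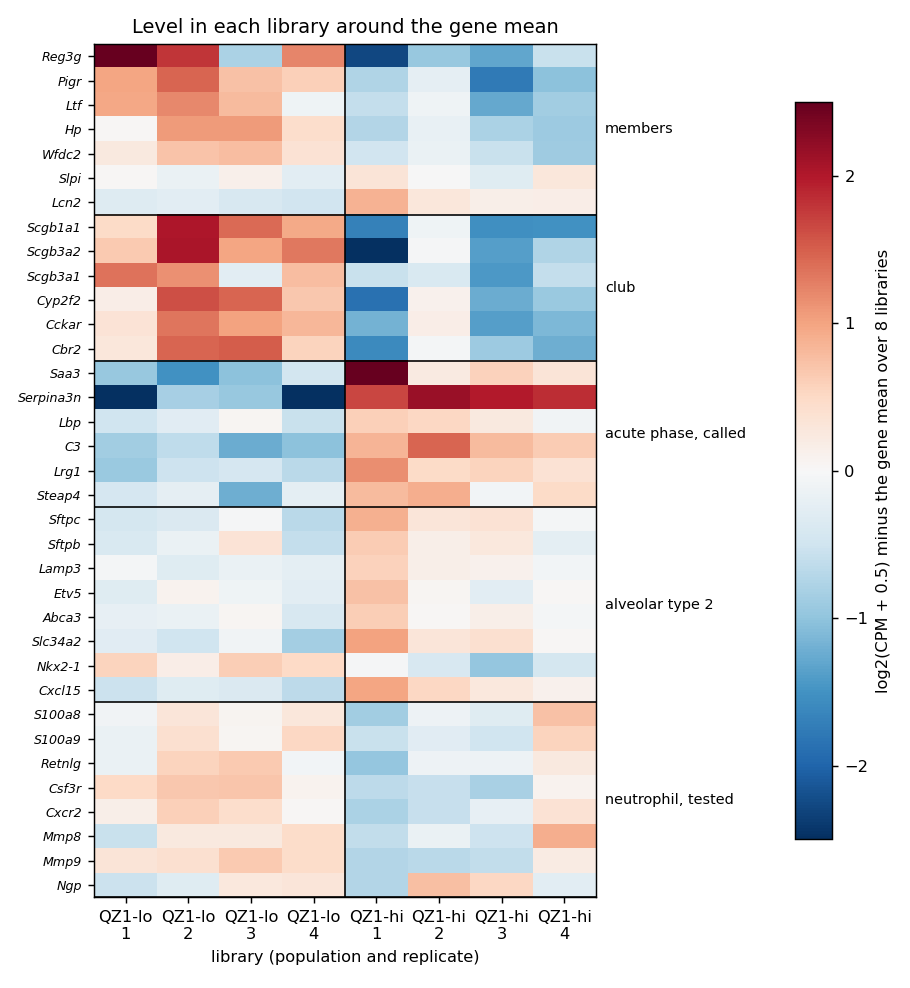
Log2(CPM + 0.5) of each gene minus its mean over the 8 libraries, in columns for the 4 QZ1-lo and 4 QZ1-hi libraries, for the 7 genes, club markers, acute phase genes called higher, alveolar type 2 markers and tested neutrophil markers. The 5 lower genes share the sign of the club markers in most libraries, which follows from both being lower in QZ1-hi. Lcn2 has its highest value in QZ1-hi replicate 1. The acute phase genes shown were chosen for being higher.

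The genes nearest to each of the 7 in profile were found by the root mean square distance between log2 CPM profiles, each centred on its mean over the 8 libraries. Hp and Wfdc2 were the closest pair within the 7 (0.22), followed by Ltf and Pigr (0.33) and by Lcn2 and Slpi (0.36). Among all genes tested, Lcn2 was nearest to Eva1b, Elovl1 and Cxcl15 (0.14, 0.14 and 0.15), Slpi to Adpgk, Sod2 and Slc2a8 (0.06, 0.07 and 0.09), and Wfdc2 to Dnaaf5, Itgb4 and Aqp5 (0.11, 0.12 and 0.13). Hp was nearest to Dusp18, Enah and Tspan1 (0.14, 0.17 and 0.17), Ltf to Chmp4c, Pkp3 and Ddit4l (0.25, 0.26 and 0.26), and Pigr to Papolb, Ccdc103 and Lrrc51 (0.25, 0.26 and 0.27). Reg3g was nearest to Cd28, Fgf13 and Muc5ac (0.64, 0.96 and 0.99), but its own profile also spread most around its mean, with a root mean square of 1.94 against 0.22 for Slpi and 0.43 for Lcn2, and the distances are not scaled for this.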

How the data were processed

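The authors deposited raw counts per gene for 4 QZ1-hi and 4 QZ1-lo libraries, made with Rsubread and not normalized. The submitters' processing notes name mm10 and DESeq2. The aligner, annotation and strand setting of the counting were not given in the sources used here. Of 27179 Entrez Gene identifiers, 25275 received a symbol from RefSeq, 17 from GENCODE M21, and 1887 had none.

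Counts were fitted in R 4.3.3 with edgeR 4.0.16 (TMM factors 0.660 to 1.35, filterByExpr with a minimum count of 10, glmQLFit and glmQLFTest) over 15583 genes. The SE was obtained as |log2 fold change| / √F. Single values were compared over all 70 assignments of libraries. A floor of 3 counts was 0.0894 to 0.179 CPM, which covers counting error only. Coordinates and exon lengths come from GENCODE M21 on GRCm38. None of the 7 genes shares exonic bases with a gene on the other strand, and Slpi shares 1 base with Mir7678 on its own strand. Of the 50-base stretches of Pigr, 0.458% recur in other genes, and none of those of the other members do. The procedure was tested on simulated data.

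The 7 genes and all lists were chosen with earlier results of these data known. Named genes are the 7, at most 4 called genes per list and direction by size of change, the most abundant gene of a list, defining genes at 0, and the 3 nearest profiles of each gene. Muc4, Cxcl17, Cp, Cd14, Duox1, Reg3b, Elane, Stat3 and Ptprc were named after their values were seen. Alternatives were DESeq2 1.42.0, limma 3.58.1 (voom), DESeq2 size factors in edgeR, library size only, no filter, a count of 10 required in each library, a robust fit, a threshold of 0.01, removal of mitochondrial and ribosomal RNA genes, and each library left out.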

Additional observations from a re-analysis of the deposited data

Results flagged for a closer look

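A few single libraries stood far from the other 3 of their population, by a rule that compares the gap to the nearest library with the whole range. For independent values with a normal spread, chance alone picks about 1 in 20 groups this way. The rule was applied to CPM, and some groups overlap, as Scgb1a1 is part of the summed club markers. That rate is therefore only a rough guide. Here 11 of 110 groups of 4 were picked. Lcn2 at 444 CPM in QZ1-hi replicate 1 was one, and Saa3 at 20.5 CPM in the same library was another.

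In QZ1-hi replicate 2, the summed club markers (1127 CPM) and Scgb1a1 (796 CPM) were picked, together with the mucin gene Muc5ac (3.21 CPM) and the mesothelial markers Upk3b (126 CPM) and Wt1 (27.3 CPM). Ltf, Hp, Wfdc2 and Pigr also had their highest QZ1-hi value in that library without being picked. The remaining picks were Cebpd in QZ1-hi replicate 3 (241 CPM), Mmp9 in QZ1-hi replicate 4 (22.8 CPM), Itgb6 in QZ1-lo replicate 1 (153 CPM) and Upk3b in QZ1-lo replicate 2 (16.8 CPM).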

How the results depend on the processing

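Ltf, Hp, Wfdc2 and Pigr kept their direction and their call under every alternative run. With scaling by library size only, Lcn2 was at 0.35 (adjusted p = 0.371) and was not called, Slpi turned to -0.31 (adjusted p = 0.429), none of the 7 genes was called higher (0), 882 genes in all were higher and 2509 lower, and the summed pan-leukocyte markers turned to a log2 difference of -0.34, all by edgeR except the last. With limma, Reg3g was at -3.65 (adjusted p = 0.115). The cause was not tested. An adjusted p under 0.01 left 902 genes higher and 665 lower. Leaving out each library in turn kept 5 of the 7 genes lower and 1 higher in all 8 fits. The log2 fold changes then ranged from -1.72 to -1.29 for Ltf, 0.56 to 0.86 for Lcn2, -1.55 to -1.20 for Hp, 0.08 to 0.24 for Slpi, -1.20 to -0.91 for Wfdc2, -3.77 to -2.66 for Reg3g and -2.16 to -1.65 for Pigr, and the counts of all genes from 1136 to 1506 higher and 938 to 1201 lower. No paired analysis was possible because the replicate numbers only follow accession order and neither the labels nor the paper say which libraries came from one mouse. The summed macrophage markers had the same order by number in both populations (3464, 2078, 1137 and 5907 CPM in QZ1-hi replicates 1 to 4, and 3141, 1713, 798 and 3686 CPM in QZ1-lo), a hint from the data, not the design, that same-numbered libraries may share a source. Chil3 alone made up 83.3% of these sums. The summed fibroblast markers also kept their order, while the summed club and endothelial markers did not. Taken by number, the mitochondrial ribosomal RNA share was higher in QZ1-hi each time (39.5, 56.0, 46.4 and 58.4% against 30.2, 47.3, 33.2 and 38.4%). Lyz2 and the summed type 2 markers were also higher in QZ1-hi each time. The unpaired p-values given for these do not use the numbers, and a paired difference was not tested. Depth limits Reg3g most, which rests on 6 to 33 reads per QZ1-hi library.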

Other observations

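Markers of a transitional alveolar state, in which type 2 cells are on their way to type 1 cells, were also lower in QZ1-hi. Of 8 such markers 7 were lower, against 8.21% of all genes tested, with a median log2 fold change of -1.47. Krt18 of this list is also a pan-epithelial marker, a list that was lower in all 6 genes with a median log2 fold change of -1.32. Whether the fall was particular to the transitional state was not tested. Cldn4, a tight junction protein, fell by 2.31 on the log2 scale (SE 0.28), Sfn, a cell cycle adaptor, fell by 1.71 (SE 0.19), Itgb6, an integrin subunit, fell by 1.58 (SE 0.26), and Krt8, a simple epithelial keratin, fell by 1.50 (SE 0.15), with adjusted p-values by edgeR from 0.000263 to 0.00179.

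QZ1-lo replicate 1, the library with the highest Reg3g, was also the highest for Duox1, an oxidase of the airway surface that supplies hydrogen peroxide, at 11.9 CPM against at most 0.448 CPM in the other QZ1-lo libraries, and for Bpifb1 at 48.8 CPM against at most 32.3 CPM. Duox1 was not called (-0.72, SE 1.29, adjusted p = 0.777 by edgeR). Ciliated cell markers were lower in all 6 genes, against 8.21% of all genes tested. With a single library left out, 4 to 6 of them were lower. They summed to 56.0 to 138 CPM in QZ1-hi and 202 to 430 CPM in QZ1-lo. The 6 basal cell markers summed to at most 8.15 CPM in any library.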
